A study of Mus musculus with 6 samples.

Results

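The clustered protocadherin genes form a single locus on mouse chromosome 18, and their chromatin accessibility was described here in primary smooth muscle cells of the oviduct. Members were all genes on that chromosome whose GENCODE symbol starts with Pcdha, Pcdhb, Pcdhga, Pcdhgb or Pcdhgc. This gave 58 genes, 57 of them protein coding and 1, Pcdhgb8, annotated as a polymorphic pseudogene, of 21939 genes whose promoters were compared. They comprised 12 alpha, 22 beta, 12 gamma-a and 7 gamma-b variable genes and 5 C-type genes, all on the plus strand. Pcdha11 is the symbol of 2 of these records, ENSMUSG00000007440 and ENSMUSG00000102206. The cluster was taken as chr18:36929184-37841873 (GRCm38), a stretch of 912.69 kb that starts 1 kb before the first member. It held 16 of the 66679 regions obtained by merging the reproducible peaks of both genotypes.

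Protocadherins are cell surface adhesion proteins of the cadherin superfamily. In the clustered family, each variable gene of the alpha and gamma arrays consists of a large first exon with its own promoter, which is spliced to constant exons shared by the whole array, whereas beta genes stand alone. In neurons, individual variable promoters are chosen largely at random from cell to cell, which gives neighboring cells different surface identities. That choice involves CTCF and cohesin, which join a promoter to distal enhancers, and DNA methylation of the promoters that stay silent. The C-type genes at the end of the alpha and gamma arrays follow different rules and are not chosen in this random way. PBRM1, also known as BAF180, is a subunit of the PBAF form of the SWI/SNF complex, which moves nucleosomes.

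ATAC-seq marks open chromatin by the places where the Tn5 transposase inserts adapters. The study made 6 libraries on D2 of pregnancy from oviducts of mice aged 8 to 12 weeks, 3 labelled WT and 3 Pbrm1 cKO. According to the study, Pbrm1 cKO mice carried Pbrm1 fl/fl with PR IRES-cre/+ and controls were Pbrm1 fl/fl littermates, so both groups carried the floxed alleles. The Cre was driven by the progesterone receptor locus and was therefore not restricted to muscle. The tissue was digested and filtered, and the cells were plated for some hours before the libraries were made. The labels do not say how many mice contributed to a library, and p-values measure the spread between these libraries.

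For each library a relaxed peak list of 298563 to 300000 entries was used. The number of reads is unknown, but the fold and p of an entry together give the number of tags, or Tn5 insertions, at its summit. The median was 13 to 14 tags per entry in 5 libraries and 8 in WT library 3, which stands apart. The entry with the lowest −log10 p lay between 2.00 and 3.25 depending on the library. A gene without an entry lay under the threshold of that list, so its promoter cannot be called closed. The Pbrm1 promoter had an entry in every library, with a rank between 7677.5 and 10891.5 of 21939 genes. This does not check the labels, since the promoter need not be part of the deletion.

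Few promoters of the cluster were listed in every library, apart from those of the C-type genes (Pcdhac1, Pcdhac2, Pcdhgc3, Pcdhgc4 and Pcdhgc5). A promoter was counted as listed when an entry lay within 1 kb of any annotated transcription start of the gene. Of the 58 genes, 8 (13.8%) had an entry in all 6 libraries, 38 had one in some libraries and 12 (20.7%) in none. Over all genes compared, 14713 of 21939 (67.1%) had an entry in all 6 and 4764 (21.7%) in none. The share without any entry was thus close to that of all genes, and the difference lay in the genes with an entry in only some libraries. All 5 C-type promoters were listed in every library. Among the 53 variable genes, only Pcdha4, Pcdhgb6 and Pcdhgb8 were.

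**Figure D1:**
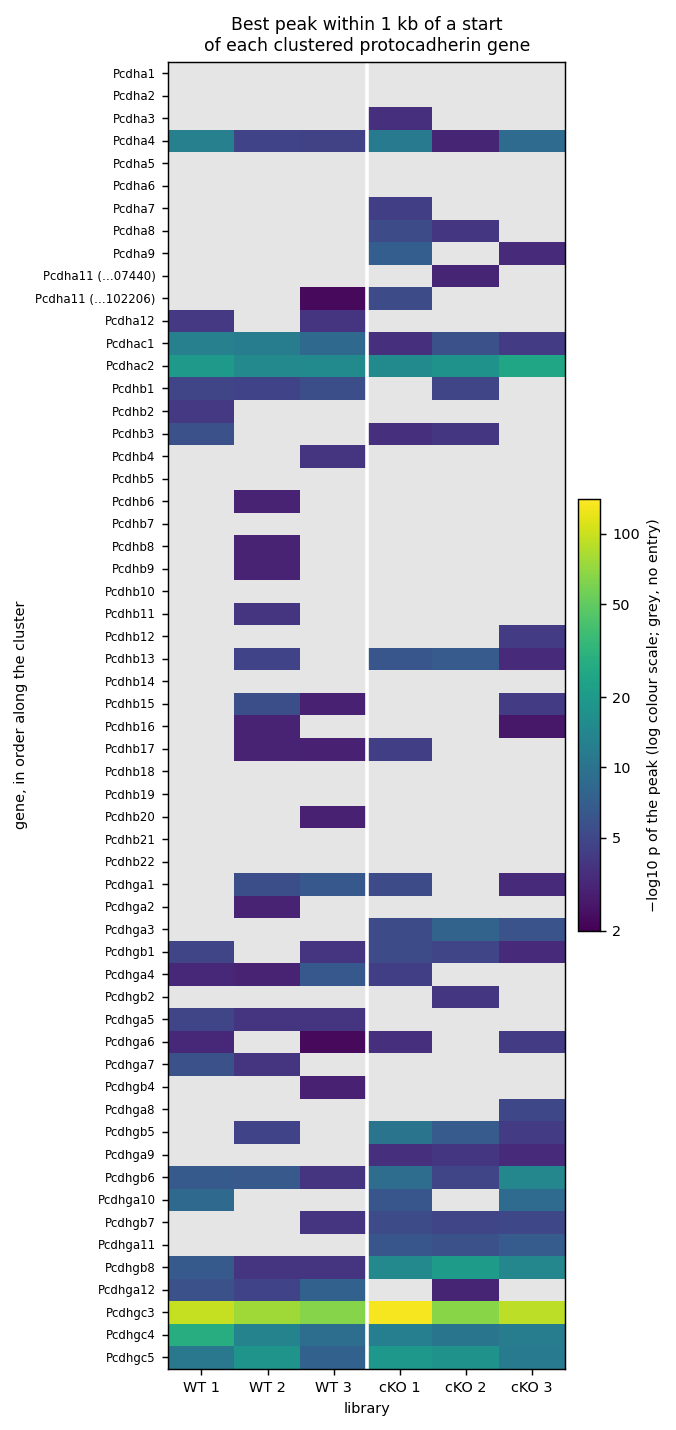
The −log10 p of the best peak within 1 kb of a start is shown for the 58 genes (rows, in order along the cluster) in each library (columns), with grey where no entry was listed; the 2 records named Pcdha11 are told apart by the last digits of their identifiers. The 5 C-type genes are filled in all 6 columns, 12 genes are grey throughout, and most other cells with an entry hold low values.

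The number of cluster genes with a listed promoter was 19, 24 and 23 in WT libraries 1 to 3 and 26, 21 and 23 in Pbrm1 cKO libraries 1 to 3. The genotypes overlapped, with 22.0 ± 2.65 genes in WT and 23.3 ± 2.52 in Pbrm1 cKO (SD, n = 3 each), a difference of 1.33 within their spread (two-sided exact permutation test, p = 0.7; p = 1 after adjustment over 4 such measures). The smallest p that 3 against 3 libraries can give is 0.1. Within the 50000 intervals that ranked best in a library, 3, 3 and 4 cluster promoters were held in WT and 2, 4 and 4 in Pbrm1 cKO (difference of 0; p = 1 by exact permutation, 1 after adjustment). Pcdhgc3 was among them in every library. Pcdhac2 was held in 5 of the 6, whereas Pcdhgb8 was held in Pbrm1 cKO libraries 2 and 3 and Pcdhac1 in WT library 3 only.

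Pcdhgc3, the first C-type gene of the gamma array, had by far the strongest promoter of the family. The −log10 p of its best entry was 95.7, 75.8 and 64.7 in WT libraries 1 to 3 and 132.1, 66.1 and 92.3 in Pbrm1 cKO libraries 1 to 3, resting on 72 to 114 tags in WT and 81 to 136 tags in Pbrm1 cKO. Values of the genotypes overlapped. Its summit stood 14.0 to 15.1 fold above local background in WT and 13.2 to 20.01 fold in Pbrm1 cKO. It ranked between 1499 and 6594 among the 21939 genes, whereas no other member ranked better than 10903 in any library.

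The other C-type promoters were moderate. At Pcdhac2, the last C-type gene of the alpha array, the −log10 p was 20.01, 14.8 and 15.2 in WT and 15.2, 17.5 and 24.4 in Pbrm1 cKO. For Pcdhgc5 the −log10 p was 10.9, 18.1 and 7.53 in WT and 19.3, 17.7 and 11.3 in Pbrm1 cKO. At both genes the genotypes overlapped. Pcdhgc4 had a −log10 p of 28.3, 13.3 and 9.25 in WT and 12.5, 10.50 and 12.0 in Pbrm1 cKO, so that WT library 1 lay well above the other 5. At Pcdhac1, the −log10 p was 12.8, 11.9 and 8.50 in WT against 3.58, 5.77 and 4.17 in Pbrm1 cKO, and every WT library exceeded every Pbrm1 cKO library. The tags behind these Pcdhac1 entries were few, 11 to 16 in WT and 6 to 8 in Pbrm1 cKO.

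**Figure D2:**
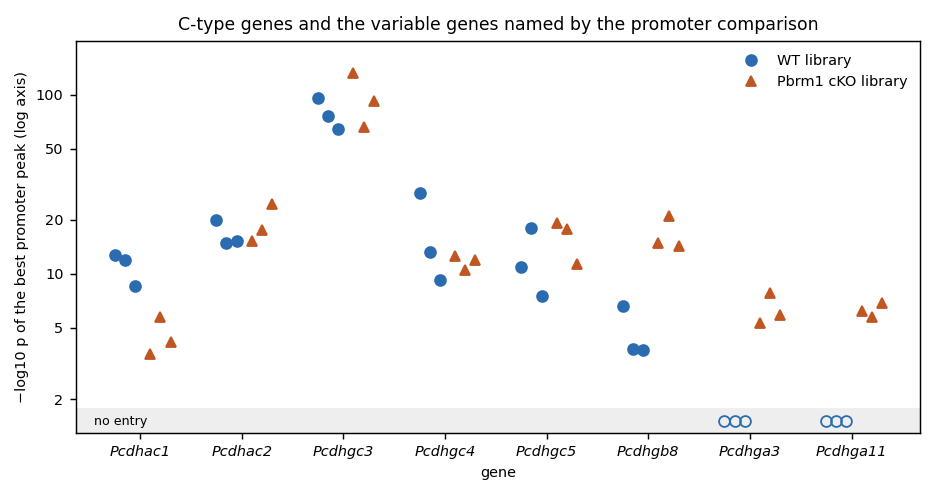
Each symbol gives the −log10 p (log axis) of the best promoter peak in a library, circles for WT and triangles for Pbrm1 cKO, with open symbols in the grey band where no entry was listed. Pcdhgc3 lies between 64.7 and 132.1, Pcdhac1 is higher in the WT libraries, and Pcdhgb8 is higher in the Pbrm1 cKO libraries.

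To compare libraries that differ in depth, promoters were ranked within each library and given a rank score, log2(number of genes / rank), which is higher for stronger peaks and rises by 1 with each 2-fold better rank. The score was highest for Pcdhgc3, at 2.96 ± 0.445 in WT and 2.70 ± 1.08 in Pbrm1 cKO (SD, n = 3 each). It was followed by Pcdhac2 (0.87 ± 0.070 and 0.85 ± 0.084), Pcdhgc4 (0.85 ± 0.14 and 0.72 ± 0.018) and Pcdhgc5 (0.76 ± 0.11 and 0.80 ± 0.061). These last 3 did not differ beyond their spread in WT. Next in order were Pcdhgb8, Pcdhac1, Pcdhgb6 and Pcdha4. A gene without an entry was given the rank after the last listed gene, so that its score was 0.47 ± 0.018 in WT libraries and 0.49 ± 0.0041 in those of Pbrm1 cKO.

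Variable promoters rested on few tags. Over the 53 variable genes and 6 libraries, 106 of 318 combinations had an entry, with 4 to 21 tags and a median of 7 tags at the summit, and 7 of the 106 had a −log10 p over 10. In the alpha array, Pcdha4 had the strongest promoter, with a −log10 p of 12.8, 4.68 and 4.62 in WT and 11.4, 3.11 and 8.80 in Pbrm1 cKO. Apart from Pcdha4, alpha genes were listed in no more than 2 libraries each. Pcdha9 was listed in Pbrm1 cKO libraries 1 and 3 only (−log10 p of 7.17 and 3.38), and Pcdha12 in WT libraries 1 and 3 only (4.03 and 3.76). Of the 12 alpha genes, 4 had no entry at all.

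None of the 22 beta genes was listed in all 6 libraries and 8 (36.4%) were listed in none, a share close to that of the alpha genes (33.3%). Between 3 and 9 of them were listed per library, and the 9 were found in WT library 2. The highest mean score belonged to Pcdhb1, the first beta gene, with a −log10 p of 4.85, 4.68 and 5.53 in WT and 4.83 in Pbrm1 cKO library 2 alone. Pcdhb13 was listed in WT library 2 (4.68) and in all 3 Pbrm1 cKO libraries (6.21, 6.75 and 3.38). Pcdhb15 was listed in WT libraries 2 and 3 (5.59 and 2.96) and in Pbrm1 cKO library 3 (4.17).

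All 19 gamma variable genes had an entry in at least 1 library, which set them apart from the alpha and beta arrays in these lists. Pcdhgb6 and Pcdhgb8, both gamma-b genes, were listed throughout. At Pcdhgb6 the −log10 p was 6.63, 6.55 and 3.76 in WT and 9.21, 4.83 and 14.2 in Pbrm1 cKO, with overlap. Pcdhgb8 had 6.63, 3.81 and 3.76 in WT and 14.8, 21.003 and 14.2 in Pbrm1 cKO, resting on 6 to 10 and 17 to 21 tags, and the genotypes did not overlap. The −log10 p at Pcdhgb5 was 4.68 in WT library 2, with no entry in the other WT libraries, and 10.3, 6.75 and 4.17 in Pbrm1 cKO. Among gamma-a genes, Pcdhga10 was listed in WT library 1 (8.55) and Pbrm1 cKO libraries 1 and 3 (6.21 and 8.80). Pcdhga1 was listed in WT libraries 2 and 3 (5.59 and 6.48) and Pbrm1 cKO libraries 1 and 3 (5.29 and 3.38). Pcdhga12, the last gamma-a gene, had 5.72, 4.68 and 7.47 in WT and an entry of 3.11 in Pbrm1 cKO library 2 alone.

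A few promoters were listed in every library of a genotype and in none of the other. Pcdhga3 had no entry in WT and a −log10 p of 5.29, 7.78 and 5.91 in Pbrm1 cKO. Pcdhga11 had no entry in WT and 6.21, 5.77 and 6.84 in Pbrm1 cKO. Pcdhga9 completed this group with 3.58, 3.95 and 3.38 in Pbrm1 cKO. The converse held for Pcdhga5, with 4.85, 3.81 and 3.76 in WT and no entry in Pbrm1 cKO. These entries rested on 10 tags or fewer. Of the 38 members with an entry in some but not all libraries, 3 were thus listed in all Pbrm1 cKO libraries alone and 1 in all WT libraries alone. Of the 2462 such genes among all genes, 31 (1.26%) and 54 (2.19%) were. Pcdhga9 and Pcdhga5 were named here after their values were seen.

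Promoter listing went along with base composition within the family. From 250 bases before to 50 after the 5′ end of each gene, the GC content was 47.3% to 62.0% in C-type genes (median 54.7%) and 30.7% to 49.0% in variable genes (median 39.7%). Pcdhgc3 (62.0%) and Pcdhac1 (60.7%) were the most GC-rich, yet differed widely in their peaks. The median was 49.8% in the 8 members listed in all 6 libraries, 39.7% in the 38 listed in some and 36.8% in the 12 listed in none. All 5 C-type genes were among the 8, and the 3 variable genes among them had a median of 44.0%. Over all genes the median was likewise higher in the 14713 listed in all libraries (59.3%) than in the 4764 listed in none (44.0%). Because the arrays arose by duplication, the uniqueness of the windows was also determined. The share of 50-base stretches within 1 kb of the 5′ end that recur in the cluster was 0% in all C-type genes and at most 17.9% in variable genes, the highest share being in the alpha array. How the read mapping treated these stretches was not tested.

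**Figure D3:**
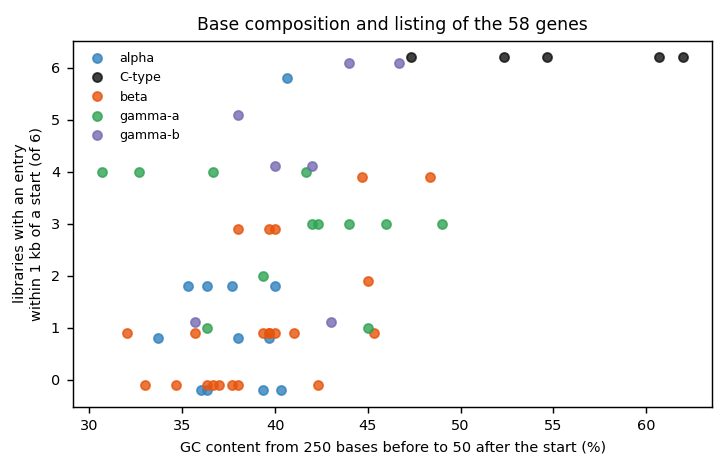
Each point is a gene, placed by the GC content around its 5′ end (horizontal axis, percent) and by the number of the 6 libraries that list its promoter (vertical axis, shifted slightly by group). The C-type genes lie at 47.3% to 62.0% and at 6 libraries, and the genes listed in no library lie between 33.0% and 42.3%.

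Along the cluster, listed intervals were concentrated at its gamma end. Distinct intervals inside the cluster numbered 53, 55 and 78 in WT and 57, 48 and 61 in Pbrm1 cKO (62.0 ± 13.9 and 55.3 ± 6.66, mean ± SD of 3 libraries each; p = 0.7 by exact permutation, 1 after adjustment), and WT library 3 was the highest. The covered length was 11873, 11288 and 12052 bp in WT and 12648, 10497 and 11365 bp in Pbrm1 cKO (11738 ± 399.6 and 11503 ± 1082 bp; p = 0.8 by exact permutation, 1 after adjustment). The directions of both differences depended on single libraries and on the list threshold. Without WT library 3, Pbrm1 cKO was higher by 1.33 intervals, and without Pbrm1 cKO library 2 it was higher by 268.8 bp.

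The beta and alpha variable arrays were the sparsest stretches. The beta array held 2.43 ± 1.17 intervals per 100 kb in WT and 1.28 ± 0.22 in Pbrm1 cKO (SD, n = 3 each), and the alpha variable array 2.09 ± 0.72 and 2.71 ± 1.44. Over all chromosomes compared, the density was 7.98 ± 0.76 in WT and 7.47 ± 0.079 in Pbrm1 cKO. The gamma variable array lay above that level in the means, at 9.91 ± 2.88 and 12.2 ± 2.22. The stretch of 36.51 kb with the gamma C-type genes and constant exons was the densest, at 50.2 ± 5.70 and 40.2 ± 6.89 per 100 kb. It alone held 7 of the 16 merged regions, while neither the alpha variable nor the beta array held any. Libraries of the genotypes overlapped in every stretch.

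**Figure D4:**
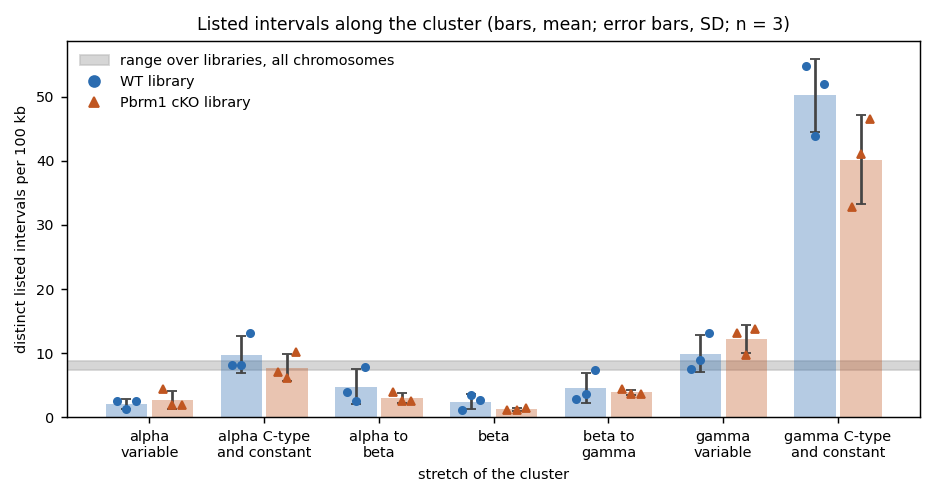
Bars give the mean number of distinct listed intervals per 100 kb in 7 stretches of the cluster, error bars the SD (n = 3), and symbols single libraries; the grey band is the range of the libraries over all chromosomes. The beta and alpha variable arrays lie below the band and the gamma C-type stretch, at 50.2 and 40.2, lies above it.

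In the reproducible (IDR) lists, of which each genotype has 1, 4 promoters were called in both genotypes, namely Pcdhac2, Pcdhgc3, Pcdhgc4 and Pcdhgc5. Pcdhac1 was called in WT only and Pcdhgb8 in Pbrm1 cKO only, and the other 52 genes in neither. The lists give no measure of replicate error, and both genes had entries in all 6 relaxed lists. Among the 16 merged regions, 13 were in both lists, 2 in WT only and 1 in Pbrm1 cKO only. Of these 16, 8 lay within 1 kb of a member's start and all 16 had an entry in every library.

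By mean rank score, the strongest region inside the cluster was not a protocadherin promoter. At chr18:37643709-37644427 it covered the start of Taf7, an intronless gene for a subunit of the general transcription factor TFIID that lies between the beta and gamma arrays. Its −log10 p was 115.7, 98.5 and 58.1 in WT and 99.8, 138.1 and 117.1 in Pbrm1 cKO. The region at the Pcdhgc3 start, chr18:37805950-37806509, came second by mean rank score. Its −log10 p was above that at Taf7 in WT library 3 (64.7) and in Pbrm1 cKO library 1 (132.1). Behind these came chr18:37217951-37218509, in the interval between the alpha constant exons and the beta array and 39429 bp from the nearest other annotated start. An enhancer of the alpha array, HS5-1, is known downstream of the alpha constant exons, but whether this region is that enhancer was not tested. The −log10 p there was 26.2, 10.8 and 21.7 in WT and 27.7, 39.4 and 20.3 in Pbrm1 cKO, with overlap.

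Of the remaining regions away from the members' starts, chr18:37836108-37837210 lay among the gamma constant exons, 16454 bp from the Pcdhgc5 start. Its −log10 p was 24.7, 26.6 and 15.2 in WT and 22.0, 19.1 and 26.3 in Pbrm1 cKO. chr18:37655478-37655708 lay 27 bp from a start of the long noncoding RNA gene 3222401L13Rik, with 21.1, 23.2 and 12.9 in WT and 17.2, 12.2 and 19.02 in Pbrm1 cKO. chr18:37172230-37172868, at the start of the annotated gene Gm38097, had 13.9, 20.5 and 10.7 in WT and 13.6, 11.1 and 12.0 in Pbrm1 cKO. chr18:37824934-37825685, 197 bp from the start of Gm38182, had 19.4, 21.6 and 4.97 in WT and 16.3, 9.34 and 13.2 in Pbrm1 cKO. The −log10 p overlapped between genotypes at all 4. By rank score, however, the regions at Gm38097 and 3222401L13Rik were lower in every Pbrm1 cKO library than in any WT library. Neither passed the test given below.

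The 16 regions were then compared between genotypes by their rank score among all 66679 regions, log2(number of regions / rank). None passed the test (limma with Benjamini-Hochberg adjustment over all regions, threshold 0.05), where 26 regions were higher and 19 lower in Pbrm1 cKO among all regions (0.0675%). On simulated data this fit recovered few of the changed regions, so that a region short of the threshold is not shown to be unchanged. The smallest adjusted p was 0.109, for the region at the Pcdhac1 start, chr18:37089867-37090080. Its score was 0.52 lower in Pbrm1 cKO (difference −0.52, SE 0.14), as its rank was 39244.5 to 49597 in WT and 64520.5 to 66173 in Pbrm1 cKO. The region 46 bp before the Pcdhgb8 start, chr18:37761554-37761755, differed by 0.62 (SE 0.18, adjusted p = 0.124), with a rank of 59996.5 to 65600.5 in WT and 31956.5 to 48526.5 in Pbrm1 cKO. At Pcdhgc4, chr18:37815234-37815473 differed by −0.66 (SE 0.26, adjusted p = 0.236). At Pcdhgc3 the difference was −0.30 (SE 0.56, adjusted p = 0.849), and at Pcdhgc5 it was 0.012 (SE 0.25, adjusted p = 0.989).

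Unadjusted, 4 of the 16 regions had p under 0.05, as had 10575 of all 66679. In 1 region, that at Pcdhgb8, every Pbrm1 cKO library ranked above every WT library (10.6% of all regions), and in 4 regions every one ranked below (10.8% of all regions). These 4 lay at Pcdhac1, Gm38097, 3222401L13Rik and Pcdhgc4. The median difference over the 16 regions was −0.26, beside −0.00026 over all regions, with 7 regions above and 9 below 0. Without WT library 3 the median was −0.11, and with regions ranked by fold instead of p it was −0.13. With normal scores of the ranks in place of log2 ranks, the Pcdhac1 region passed the test as the sole member (adjusted p = 0.0129), where 641 of all regions were higher and 1084 lower.

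**Figure D5:**
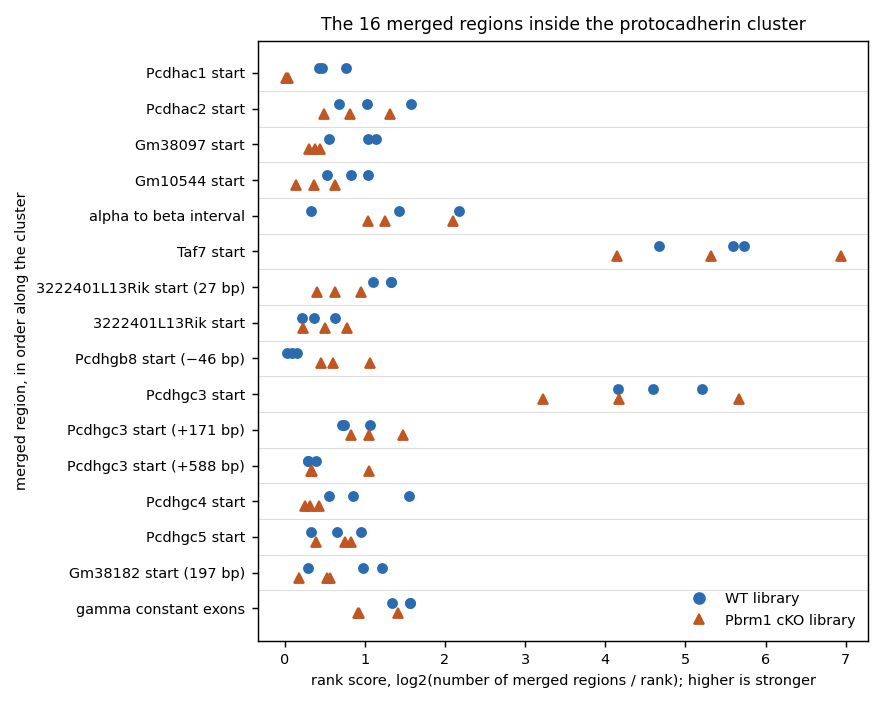
The rank score among all merged regions is plotted for each library (circles, WT; triangles, Pbrm1 cKO) at the 16 regions inside the cluster, named by the nearest annotated start. The Taf7 and Pcdhgc3 starts stand apart from the rest, and the Pcdhac1 and Pcdhgb8 regions are those whose genotypes separate with the smallest adjusted p (0.109 and 0.124).

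In the promoter comparison over all 21939 genes, 46 genes were higher in Pbrm1 cKO (0.21%) and 20 lower (0.0912%) by the same test. The members past its threshold were 3 higher, Pcdhgb8 (difference in rank score 0.26, SE 0.039, adjusted p = 0.0178), Pcdhga3 (0.14, SE 0.021, adjusted p = 0.0178) and Pcdhga11 (0.13, SE 0.018, adjusted p = 0.0163), and 1 lower, Pcdhac1 (−0.19, SE 0.029, adjusted p = 0.0178). These calls depended on which genes with few or no entries were kept. On simulated data this fit called more unchanged genes than its threshold allows, so its adjusted p is too lenient. When the 4764 genes without any entry were left out, no gene passed (0% of 17175), and 1416 had an unadjusted p under 0.05, among them 9 of the 46 members left. The same 4 members then had adjusted p of 0.105 (Pcdhgb8), 0.146 (Pcdhga3), 0.119 (Pcdhga11) and 0.108 (Pcdhac1). With only genes listed in at least 2 libraries kept, 17 genes were higher and 3 lower. Pcdhgb8 alone of the members passed there (adjusted p = 0.0487). Without WT library 3 none of the 4 passed, with adjusted p of 0.0619 to 0.194, and Pcdhgb7 was the sole member called. Without Pbrm1 cKO library 1, Pcdhac1 did not pass (adjusted p = 0.0921), and with promoters ranked by fold Pcdhgb8 did not (adjusted p = 0.0833).

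Among the 46 members with an entry in any library, promoter ranks of the genotypes did not overlap in 9, counting libraries without an entry as tied. In 5 the Pbrm1 cKO libraries were higher (5.68% of the 17175 genes with an entry), namely Pcdhga3, Pcdhga9, Pcdhgb7, Pcdhga11 and Pcdhgb8, all from the gamma variable array. In 4 they were lower (6.95% of those genes), namely Pcdhac1, Pcdhga5, Pcdhga12 and Pcdhgc4. The gamma array therefore held members of both directions. The median difference over all 58 members was 0.020, identical to the median over all genes and to the value of a gene without any entry. For the remaining C-type genes the differences were −0.26 (SE 0.54) at Pcdhgc3, −0.13 (SE 0.065) at Pcdhgc4, −0.027 (SE 0.068) at Pcdhac2 and 0.036 (SE 0.061) at Pcdhgc5, with adjusted p of 0.409 to 0.864.

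Protocadherin genes outside the cluster had more regular promoters. Of 12 unclustered protocadherins, 11 (91.7%) were listed in all 6 libraries, and Pcdh12, an endothelial member, in 4. Their mean rank scores ran from 0.51 to 2.15 with a median of 1.04. None passed the promoter test, and the median difference was 0.0014. In 3 of the 12, every Pbrm1 cKO library ranked above every WT library (5.68% of all genes with an entry). In 0 of them every one ranked below (6.95% of those genes). The smallest p values belonged to Pcdh20 (0.13, SE 0.042, adjusted p = 0.361), Pcdh15 (−0.098, SE 0.047, adjusted p = 0.409) and Pcdh17 (0.53, SE 0.28, adjusted p = 0.409).

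Promoters of genes for proteins known to act on the cluster were listed throughout. The list comprised CTCF, cohesin subunits and their loaders and release factors, and factors of DNA methylation and silencing such as Smchd1, Setdb1 and Dnmt3b. All 18 promoters had an entry in all 6 libraries, with rank scores of 0.87 to 4.92 and a median of 2.53. None passed the test and the median difference was 0.21, beside 0.020 over all genes. The smallest p values belonged to cohesin genes, with differences of 2.05 at Stag1 (SE 0.83), 1.18 at Rad21 (SE 0.50) and 1.77 at Smc3 (SE 0.87), each with an adjusted p of 0.409. The remaining genes of cohesin, its loaders and its release factors ran from −0.83 (Mau2) to 1.46 (Wapl). Smc3 was the 1 gene of the 18 higher in every Pbrm1 cKO library than in any WT library (5.68% of all genes with an entry). In 0 of the 18 every one ranked below (6.95% of those genes).

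Markers of the labelled cell type and of other types were read in the same way, although a listed promoter does not show that a gene was transcribed. All 5 smooth muscle markers (Acta2, Myh11, Cnn1, Tagln and Des) were listed in all 6 libraries, with a summed rank score of 4.28 to 5.34 in WT and 4.52 to 5.16 in Pbrm1 cKO. Of 7 epithelial markers 6 were listed in every library (summed score 5.83 to 6.13 in WT, 5.26 to 6.62 in Pbrm1 cKO), and of 4 endothelial markers all 4 (3.49 to 3.98 and 3.32 to 3.98). Sums cannot be compared between cell types, since the lists differ in length and a gene without an entry still adds its low score. The median score per gene was 1.00 for smooth muscle, 0.98 for neuronal, 0.90 for endothelial, 0.69 for immune and 0.63 for epithelial markers. The smooth muscle markers thus did not stand apart from the neuronal ones by this median. Among the epithelial markers, Foxj1 (mean score 2.40) stood above the rest. Of 5 neuronal markers 4 were listed in every library, with a summed score of 4.21 to 4.38 in WT and 4.50 to 4.86 in Pbrm1 cKO. Of 4 immune markers 2 were listed in every library (2.73 to 3.35 and 2.78 to 2.93), Ptprc was listed in 1 and Cd3e in none. The neuronal sum was higher in all Pbrm1 cKO libraries than in any WT library. However, 0 of the 5 neuronal markers separated the genotypes singly, and none passed the promoter test (smallest adjusted p = 0.409). Among all genes with an entry, 5.68% were higher in every Pbrm1 cKO library and 6.95% lower. Of the 7 epithelial markers, 1 was higher without overlap in Pbrm1 cKO (Epcam) and 1 lower (Krt8). None of the 7 passed the promoter test either (smallest adjusted p = 0.409). Elavl3 was listed in only 2 libraries and otherwise added the score of a gene without an entry. The part of the neuronal sum in the values of the cluster was not tested. In these bulk libraries, a change in the share of a cell type and a change in accessibility per cell cannot be told apart.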

How the data were processed

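ATAC-seq peak lists of 6 libraries were used. Per the study's methods, the authors ran the ENCODE ATAC-seq pipeline 1.9.0 (cutadapt, Bowtie2, MACS2) on GRCm38. Per library, they deposited a relaxed list (p of 0.01, at most 300000 entries), and per genotype a conservative list at an IDR of 0.05. The deposited fold is a ratio of the summit to local background. The deposited −log10 p and −log10 q are those of the peak caller, and the deposited score column is a rescaled −log10 p, or IDR value in the conservative lists. The authors compared genotypes with DESeq2 on read counts, which were not used here.

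Genes were taken from GENCODE M21. Intervals with identical coordinates were reduced to 1 with the best −log10 p. The best −log10 p within 1 kb of a start, or over a merged region (overlap of at least 1 bp), was ranked within each library, and a feature without an entry received the rank after the last listed one. limma 3.58.1 (R 4.3.3; lmFit, eBayes with a trend) was fitted to the rank scores of all features without a replicate block, with Benjamini-Hochberg adjustment at 0.05. Summaries per library were compared by exact permutation tests (scipy 1.17.1). Tags per summit were solved from fold and −log10 p (99.95% of sampled entries matched within 0.01). The procedures were tested on simulated data, where the promoter fit over all genes called more unchanged genes than its threshold allows and the fit without unlisted genes did not, and where the region fit recovered few of the changed regions.

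The members, lists and tests were chosen with earlier results of these data known. Named genes were the 3 variable genes with the highest mean rank score of each array, all C-type genes, the 3 largest differences in each direction, any member past the threshold, the 6 best-ranked regions over 1 kb from the members' starts, and the 3 smallest p of the gene lists. No sequence of the cluster is shown. A further list of marker genes is not reported here.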

Additional observations from a re-analysis of the deposited data

How the results depend on the processing

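Promoters called in the IDR lists (1 in WT only, 1 in Pbrm1 cKO only, 4 in both) were the same in number at 500 bp and 3 kb, and 1, 1 and 3 in the better-scoring part of each list. Ranking by fold gave 4 regions higher and 0 lower and a median of −0.13 over the cluster's regions. Normal scores gave 641 and 1084 regions, with 0 members higher and 1 lower. Regions with an entry in all 6 libraries gave 14 and 6. Leaving out single libraries gave 2 to 5 regions higher and 0 to 15 lower, 0 members either way, and a member median of −0.35 to −0.11. For promoters, ranking by fold gave 23 genes higher and 7 lower with 2 and 1 members (Pcdhgb8 no longer called), starts at the gene's 5′ end alone gave 27 and 12, and genes with an entry in all 6 libraries gave 3 and 0 with 0 members either way and a member median of −0.0085. After the data were seen, 3 alternatives were added. Leaving out genes without any entry gave 0 and 0, with 0 members either way. An entry in at least 2 libraries gave 17 and 3, with 1 member higher (Pcdhgb8) and 0 lower. Ranking genes without an entry last of all gave 35 and 54 and a member median of 0, with Pcdhga3, Pcdhga9 and Pcdhga11 higher and Pcdhga5 lower. Leaving out single libraries gave 13 to 90 genes higher and 13 to 78 lower, with 1 to 4 members higher and 0 to 2 lower. The cause of these shifts was not tested.

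Per library, leaving out single libraries moved the difference in listed promoters from −0.17 to 2.50, in best-ranked promoters from −0.33 to 0.67, in intervals from −11.2 to 1.33, and in covered length from −806.7 to 268.8 bp. Entries at a q of 0.05 or less reversed the last pair to 4.33 intervals and 831.0 bp.

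Several differences that had passed no test changed sign between libraries left out. The difference ran from −0.15 to 0.17 at the Pcdhgc5 region, from −0.34 to 0.58 between alpha and beta, from −0.60 to 0.80 at Taf7, from −0.44 to 0.017 at the Pcdhac2 region and from −0.95 to 0.27 at the Pcdhgc3 region. Among promoters it ran from −0.0026 to 0.097 at Pcdhgc5, from −0.074 to 0.011 at Pcdhac2 and from −0.85 to 0.22 at Pcdhgc3. Ranked by fold, the Pcdhgc5 region became −0.057.

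As regards the replicate block, deviations of same-numbered libraries correlated at −0.055 to 0.0088 over regions and −0.11 to −0.015 over promoters. These values showed no pairing, but they cannot tell whether same-numbered libraries were prepared together. A fit with that block gave 70 higher and 72 lower regions, 0 of them members, and 326 higher and 233 lower genes, of which 6 and 2 were members. The block changed no per-library difference. Total reads are unknown and promoters of the variable genes rest on few tags. An absent entry says only that a promoter lay under the threshold of its list.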
